A study of Spirodela polyrhiza with 16 samples.

Results

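The cytosolic ribosome of plants is built from a small 40S and a large 60S subunit, each an RNA core clad in ribosomal proteins, and it translates the messages made in the nucleus. The large subunit carries a flexible stalk of acidic proteins, P0 to P3, that recruits the elongation factors. In plants each ribosomal protein is usually encoded by several genes, and chloroplasts and mitochondria have ribosomal proteins of their own, which are not counted here. Ribosomal RNA holds much of the phosphorus of a growing cell, and the genes for ribosomal proteins are known to be expressed together and to follow growth.

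The cytosolic ribosomal protein genes of the giant duckweed Spirodela polyrhiza, clone 9509, were taken as all genes whose Swiss-Prot homolog is named as a 40S, 60S or 60S acidic ribosomal protein without being called chloroplastic or mitochondrial. This name rule, which used no measured value, found 141 of 20389 genes. Of these, 57 encoded 40S proteins, 76 encoded 60S proteins, 6 encoded acidic stalk proteins and 2 were homologs of ubiquitin fusions (L40 and S27a). The function itself is not shown by such a name.

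Duckweed is a floating plant with leaf-like fronds and roots that hang into the water. All plants grew in flasks of the same full medium until day 10, when the medium was exchanged for full medium (control) or for medium lacking the phosphate salt KH2PO4 (no phosphate). They were harvested on day 11, fronds and roots were separated and the tissue of a flask was pooled, so a library averages all plants of 1 flask of 1 clone. The 16 libraries of polyadenylated RNA formed 4 groups of 4: no-phosphate roots, control roots, no-phosphate fronds and control fronds.

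Whole reads recovered from the deposited FPKM values (fragments per kilobase of gene, scaled to the depth of the library) summed to between 6325297 and 12437151 per library. Libraries carry the column numbers 1 to 4 (control) and 5 to 8 (no phosphate) of their tissue, which do not show the labelled replicate. The tissue labels were checked against 10 chlorophyll a-b binding and Rubisco small subunit homologs. By limma on log2(FPKM + 1), 8 of the 10 were lower and 1 was higher in control roots, and their summed level was 0.402 times that of control fronds. The 8 were all chlorophyll a-b binding homologs. The higher gene was the only Rubisco small subunit homolog (Sp15g00063), with 573 FPKM in control roots and 24.9 FPKM in control fronds (4.48, adjusted p = 1.16e-13). The only Casparian strip homolog was higher in control roots, whereas the 32 tested homologs with peroxidase in their name were split, 14 being higher and 15 lower. This name match took in ascorbate and glutathione peroxidases and, among the lower, Sp08g01266, named Overexpressor of cationic peroxidase 3. Of 5 COBRA-like homologs tested 1 was higher and 0 lower, and the only Expansin-A homolog was lower in control roots (-1.81, adjusted p = 0.00218). The frond homologs, none of which was at 0, summed to 9242 to 16188 FPKM in no-phosphate roots, 12216 to 18707 FPKM in control roots, 30777 to 36218 FPKM in no-phosphate fronds and 36184 to 40527 FPKM in control fronds. Their part in the differences between tissues was not tested. Levels below are FPKM, which are per length, and means are given ± SD over 4 libraries. Changes are log2 differences on the log2(FPKM + 1) scale ± SE, and a call means an adjusted p under 0.05 by limma, with the Benjamini-Hochberg adjustment made over all 16598 genes tested.

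The 141 genes lay on all 20 chromosomes, with between 1 and 13 genes per chromosome in the coordinates of the deposited table. They encoded 72 distinct proteins. A single gene stood for 19 of these proteins, 42 had 2 gene copies, 7 had 3, 3 had 4 and 1, S9, had 5. Their median coding length was 546 bases, against 846 bases for all genes. Of the genes, 9 carried a domain besides the ribosomal one, such as the protein kinase domain of an S4 homolog (Sp15g00018) and the PsbP domain, named for a photosystem II protein, of an L23a homolog (Sp01g01585). No domain was listed for 5 genes, including both homologs named L18a-like. The pairs of copies Sp09g00628 and Sp09g00629 (L37a) and Sp10g00984 and Sp10g00985 (S23) lay head to tail on 1 strand with 69 and 43 bases between them. Reads of such neighbours and of close copies may have been shared in counting.

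The ribosomal protein genes were among the most abundant transcripts. Their median level over the 16 libraries was 209.8 FPKM, against 9.44 FPKM for all genes, and 87 of them ranked among the 1000 highest genes. A mean of at least 100 FPKM was reached by 103 genes, 29 had between 10 and 100 FPKM and 9 had less than 10 FPKM. The 5 highest were L36 (Sp03g01125), L26 (Sp08g00196), the ubiquitin fusion L40 (Sp04g00104), L21 (Sp14g00278) and L37 (Sp20g00038), all of the large subunit. L36 (chromosome 3, 6762427 to 6763716) had 513, 805, 492 and 669 FPKM in no-phosphate roots and 495, 708, 569 and 1089.6 FPKM in control roots. The same gene had 1093, 1065, 1239.6 and 1352 FPKM in no-phosphate fronds and 875, 765, 1259 and 1104 FPKM in control fronds.

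At the low end, 6 genes failed the filter of a mean of 0.5 FPKM and were not tested, so 135 of the 141 genes entered each comparison. No read fell on 3 of them, homologs of S9 (Sp01g00002 and Sp01g00002.gene1) and L23a (Sp10g00356). The second of these S9 genes overlaps another S9 gene on the same strand, Sp03g01027 on chromosome 3, which had between 35.9 ± 9.21 FPKM in control roots and 54.3 ± 3.34 FPKM in no-phosphate fronds. An S5 gene (Sp12g00001) and an L22 gene (Sp01g00970) reached at most 0.781 and 0.502 FPKM in any library.

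Summed over the 141 genes, ribosomal protein transcripts were scarcer in roots than in fronds under both media. The sums were 16507, 30089, 17693 and 21071 FPKM in no-phosphate roots (libraries 5 to 8), with a mean of 21340.1 ± 6145 FPKM. In control roots (libraries 1 to 4) they were 17909.8, 24689, 18108 and 33408 FPKM, with a mean of 23529 ± 7300.4 FPKM. No-phosphate fronds had 46962, 48278, 50612 and 52126 FPKM, a mean of 49494 ± 2314 FPKM, and control fronds had 34191, 31114, 49714 and 42883 FPKM, a mean of 39476 ± 8452 FPKM. All 4 no-phosphate roots lay below all no-phosphate fronds, whereas control root 4 lay above control frond 2. Within each tissue the 2 media overlapped, since control frond 3 exceeded no-phosphate fronds 5 and 6.

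**Figure D1:**
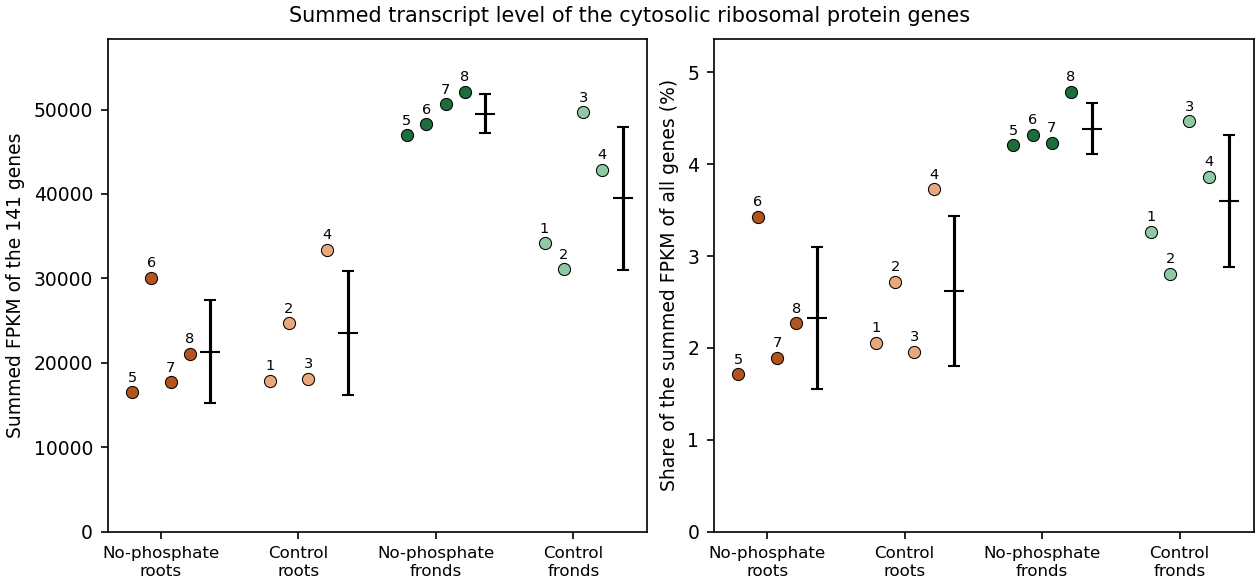
Summed level of the 141 cytosolic ribosomal protein genes in each library, as summed FPKM (left) and as the share of the summed FPKM of all genes in percent (right). Points are libraries with their column number, and bars are the mean and SD of 4. No-phosphate fronds sit between 46962 and 52126 FPKM and no-phosphate roots between 16507 and 30089 FPKM.

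As a share of the FPKM of all genes, the sums came to 2.33 ± 0.769% in no-phosphate roots, 2.62 ± 0.814% in control roots, 4.39 ± 0.273% in no-phosphate fronds and 3.60 ± 0.721% in control fronds. The mean sum of control roots was 0.596 times that of control fronds, and that of no-phosphate roots was 0.431 times that of no-phosphate fronds. The deposited FPKM do not sum to the same total in each library. The totals over all genes were 870936 to 961613 in root libraries and 1046792 to 1195160 in frond libraries. With every library rescaled to the same total, the ratios of roots to fronds were 0.727 in control medium and 0.530 without phosphate. In pooled tissue, fewer cells of a type and less RNA per cell cannot be told apart. Both subunits took part, and the summed 60S level was between 1.63 and 1.80 times the summed 40S level in every library.

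The comparison of tissues asked which ribosomal protein genes differed between roots and fronds grown in the same medium. In control medium, 99 of the 135 genes were lower and 4 were higher in roots, where 31.0% and 28.8% of all genes tested were called lower and higher. The change was below 0 for 127 of the genes, against 51.2% of all genes, and the median was -0.80, against -0.02 for all genes. The 4 and 4 libraries did not overlap for 59 genes lower and 4 genes higher in roots, against 28.2% and 26.5% of all genes. Without phosphate, 123 genes were lower and 4 were higher in roots, where 35.0% and 32.6% of all genes were called. The median change was -1.31, and for 122 genes every root library lay below every frond library, against 31.3% of all genes. All 99 genes that were lower in control roots were lower in no-phosphate roots too.

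With FPKM rescaled to the same sum, the median of all genes in control medium moved to 0.22 and the calls for the ribosomal protein genes to 62 lower (45.9%) and 6 higher (4.44%), where 22.9% of all genes were lower and 6636 of 16598 were higher. The median of the ribosomal protein genes relative to that of all genes was -0.74 after rescaling and -0.78 before it. Without phosphate, rescaling left 114 lower (84.4%) and 6 higher (4.44%), against 27.3% and 42.3% of all genes.

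The shift was shared by both subunits. In control medium, 40 of 54 tested 40S genes were lower and 2 higher in roots, with a median change of -0.79. For the 60S proteins, 54 of 73 genes were lower and 2 higher, with a median of -0.84. Without phosphate the medians were -1.30 for the 40S genes and -1.28 for the 60S genes, with 48 and 67 genes lower.

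**Figure D2:**
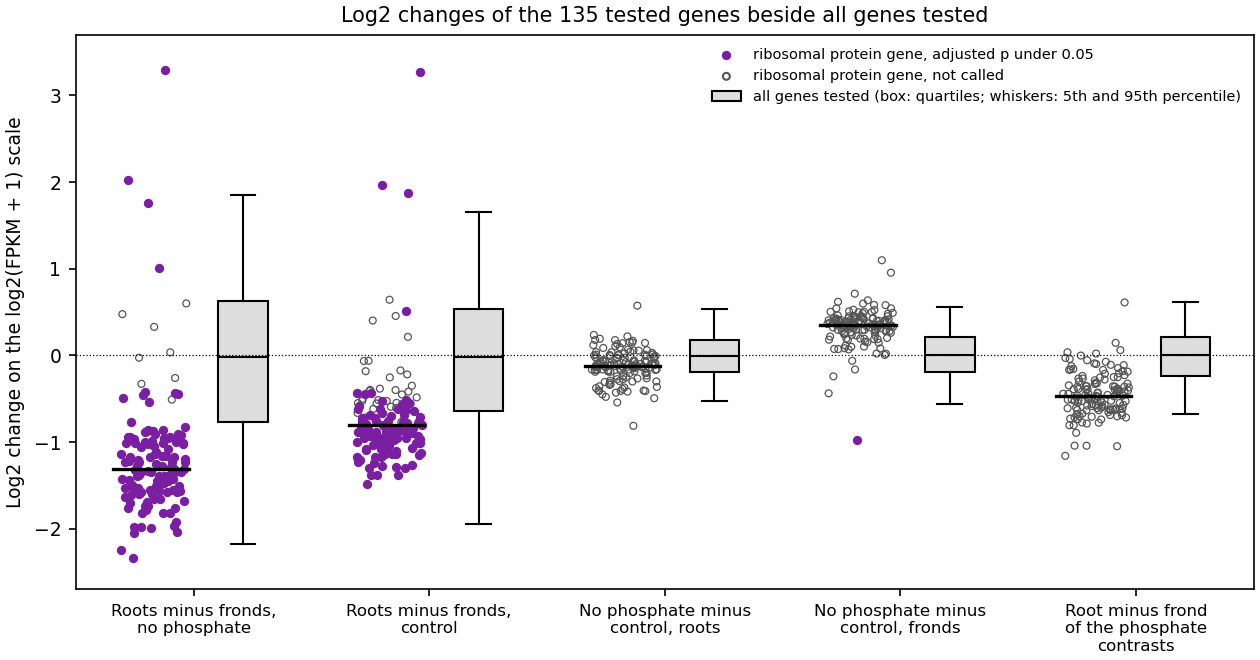
Log2 change of each of the 135 tested ribosomal protein genes (points, filled where called; thick line, their median) beside all 16598 genes tested (box, quartiles; whiskers, 5th and 95th percentile) in 5 contrasts. Most points lie below 0 in both contrasts of roots with fronds, with medians of -1.31 and -0.80, and above 0 in the contrast of fronds without and with phosphate, with a median of 0.35.

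Among 60S genes, L13 (Sp20g00566, chromosome 20, 3668387 to 3669447) had 128, 181, 132 and 252 FPKM in control roots, against 384, 359.7, 531 and 493 FPKM in control fronds. Its change was -1.38 ± 0.24 (adjusted p = 0.000123). Every control root library lay below every control frond library. L10a (Sp01g00274, chromosome 1, 1494568 to 1495498), the protein of the mobile L1 stalk near the exit site of tRNA, had between 30 and 66.8 FPKM in control roots, against between 92.0 and 144 FPKM in control fronds. It too did not overlap, and its change was -1.38 ± 0.29 (adjusted p = 0.000564). The other L10a gene, Sp09g00919, changed by -0.62 and held 79.1% of the summed L10a level in control roots and 69.4% in control fronds. L3 (Sp03g01291), a core protein near the peptidyl transferase centre, averaged 153 ± 45.6 FPKM in control roots and 371 ± 71.1 FPKM in control fronds.

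Of the genes lower in control roots, the one with the largest change was the L23a homolog with a PsbP domain, Sp01g01585 (chromosome 1, 10148614 to 10158019). It had 74.5, 98.7, 91.7 and 104 FPKM in control roots and 242, 238, 286 and 265 FPKM in control fronds, a change of -1.48 ± 0.11 (adjusted p = 1.23e-08). No root library overlapped a frond library. Reads on the 2 parts of this gene model were not separable in the table. The other L23a gene with reads, Sp10g01010, averaged 94.2 ± 22.4 FPKM in control roots and 209 ± 41.6 FPKM in control fronds.

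Of the genes lower in no-phosphate roots, L10 and L12 had the largest changes. L10 (Sp02g01259, chromosome 2, 7753496 to 7754209), which joins the large subunit late in its assembly in yeast, had 14.5, 39.7, 15.9 and 16.8 FPKM in no-phosphate roots. It had 117, 121, 90.3 and 91.5 FPKM in no-phosphate fronds, a change of -2.33 ± 0.28 (adjusted p = 1.77e-06). Library 6 stood above the other no-phosphate roots but below all no-phosphate fronds. L12 (Sp14g00026, chromosome 14, 181287 to 181754), which sits at the base of the stalk, had 12.4, 35.0, 11.7 and 11.4 FPKM in no-phosphate roots. In no-phosphate fronds it had 67.9, 87.9, 80.5 and 75.1 FPKM, and the change was -2.24 ± 0.34 (adjusted p = 2.44e-05). Library 6 was the highest of the roots for both genes. Both were minor copies of their protein. The 2 L10 genes summed to 380 FPKM in no-phosphate roots and 820 FPKM in no-phosphate fronds. Of these sums the other copy, Sp07g00625, held 94.3% and 87.2%. The 3 L12 genes summed to 252 FPKM in no-phosphate roots and 646 FPKM in no-phosphate fronds, and Sp09g00015 led with 46.5% and 51.7%.

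Of the 6 acidic stalk genes, 4 were lower in control roots and all 6 were lower in no-phosphate roots. The control calls of P3 (Sp11g00951) and of the P2 gene Sp12g00882 were lost on rescaling to the same sum (adjusted p = 0.19 and 0.165) and without control root 1, control root 3, control frond 3 or control frond 4. That of P3 was lost by limma-voom (adjusted p = 0.0501) and in the fit of the 2 groups alone (adjusted p = 0.0511) too. P0 (Sp06g01333, chromosome 6, 8271198 to 8273364), which anchors the stalk on the ribosomal RNA, had 169.7, 349, 163 and 172 FPKM in no-phosphate roots and 211, 282, 229 and 358 FPKM in control roots. It had 751, 886, 839 and 896 FPKM in no-phosphate fronds and 649, 597, 851 and 689 FPKM in control fronds. No root library reached a frond library. Its change was -2.05 ± 0.22 without phosphate (adjusted p = 5.28e-07) and -1.38 ± 0.22 in control medium (adjusted p = 4.64e-05). P3 (Sp11g00951), the plant-specific stalk protein, had the highest mean of the 6 stalk genes in all 4 groups, with 415 ± 155 FPKM in no-phosphate roots and 929 ± 56.2 FPKM in no-phosphate fronds. The P1 genes Sp02g00683 and Sp14g00341 were not called in control medium, with changes of -0.66 ± 0.28 (adjusted p = 0.0501) and -0.56 ± 0.25 (adjusted p = 0.0675). The first was called with a pseudocount of 5 (adjusted p = 0.0494), and both were called without no-phosphate root 6, control root 4 or control frond 2.

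A ubiquitin domain was listed for neither of the 2 ubiquitin fusion homologs, and both were lower in no-phosphate roots. L40 (Sp04g00104) averaged 502 ± 123 FPKM in no-phosphate roots and 1154 ± 35.0 FPKM in no-phosphate fronds, a change of -1.23 ± 0.18 (adjusted p = 1.28e-05), and was lower in control roots too (-0.90 ± 0.18, adjusted p = 0.000341). S27a (Sp09g00983) was lower in no-phosphate roots, with 98.7 ± 52.5 FPKM against 269 ± 31.5 FPKM in no-phosphate fronds (adjusted p = 0.0045). In control medium its values were spread widely, with 58.3, 86.8, 62.7 and 179 FPKM in control roots and 70.8, 70.9, 254 and 188 FPKM in control fronds. The change of S27a there was -0.52 ± 0.43 (adjusted p = 0.315), and the difference between the 2 genes was not tested.

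Against this background, 4 genes were higher in control roots. The largest difference was that of an L19 copy, Sp10g00779 (chromosome 10, 6145730 to 6147794). It had 32.7, 11.8, 13.0 and 30.6 FPKM in no-phosphate roots and 35.6, 24.5, 15.7 and 17.1 FPKM in control roots, against 1.78, 1.20, 0.514 and 1.24 FPKM in no-phosphate fronds and 0.814, 3.67, 0.765 and 1.18 FPKM in control fronds. No root library overlapped a frond library. The change was 3.29 ± 0.38 without phosphate (adjusted p = 1.14e-06) and 3.27 ± 0.38 in control medium (adjusted p = 1.51e-06).

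The other L19 copies were more abundant and went the other way. Sp06g00364 averaged 251 ± 60.6 FPKM in control roots and 456 ± 60.1 FPKM in control fronds, and Sp18g00286 averaged 174 ± 28.7 FPKM in control roots and 323 ± 61.0 FPKM in control fronds. Their changes were -0.88 ± 0.18 (adjusted p = 0.000598) and -0.89 ± 0.18 (adjusted p = 0.000557). The root-high copy had the lowest mean of the 3 in every group.

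S27 (Sp07g00770, chromosome 7, 5186383 to 5186994), a zinc-binding protein of the small subunit, was the only gene so named. It had 76.9, 50.8, 62.1 and 88.7 FPKM in no-phosphate roots and 83.4, 55.1, 52.6 and 73.7 FPKM in control roots, against 17.2, 19.0, 12.8 and 15.6 FPKM in no-phosphate fronds and 15.5, 17.1, 13.3 and 18.2 FPKM in control fronds. The tissues did not overlap, and the media gave similar values within each tissue. The change was 2.03 ± 0.18 without phosphate (adjusted p = 8.41e-08) and 1.96 ± 0.18 in control medium (adjusted p = 1.46e-07).

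Both L18a-like homologs, which carry no listed ribosomal domain, were higher in no-phosphate roots. Sp05g00614 (chromosome 5, 3367478 to 3368995) had 495, 358, 354 and 417 FPKM in no-phosphate roots and 508, 442, 410.2 and 461 FPKM in control roots. It had 121, 106, 131 and 115 FPKM in no-phosphate fronds and 109.6, 129.7, 131 and 124 FPKM in control fronds. All root libraries exceeded all frond libraries, with changes of 1.76 ± 0.12 without phosphate (adjusted p = 2.73e-09) and 1.87 ± 0.12 in control medium (adjusted p = 1.53e-09). Sp08g00045 had 159, 87.4, 123 and 128 FPKM in no-phosphate roots, against 45.0, 56.0, 71.5 and 70.7 FPKM in no-phosphate fronds, again without overlap (1.01 ± 0.20, adjusted p = 0.000366). In control medium its change was 0.40 ± 0.20 (adjusted p = 0.1). The L18a gene without that suffix, Sp02g00146, was lower in control roots (-1.01, adjusted p = 0.00151).

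The fourth was an S7 copy of low level, Sp04g01270, with 5.14 ± 0.514 FPKM in control roots and 3.33 ± 0.653 FPKM in control fronds (0.52 ± 0.16, adjusted p = 0.0105). It was not called without phosphate (0.33 ± 0.16, adjusted p = 0.0778). The other S7 copy, Sp16g00697, had 45.0 ± 15.5 FPKM in control roots and 96.9 ± 18.0 FPKM in control fronds, a change of -1.13 ± 0.23 (adjusted p = 0.000535). The remaining 4 genes with a change above 0 in control medium were not called. They were the L18a-like gene Sp08g00045, the S15a genes Sp06g01236 and Sp13g00580, and the L36 gene Sp18g00167.

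**Figure D3:**
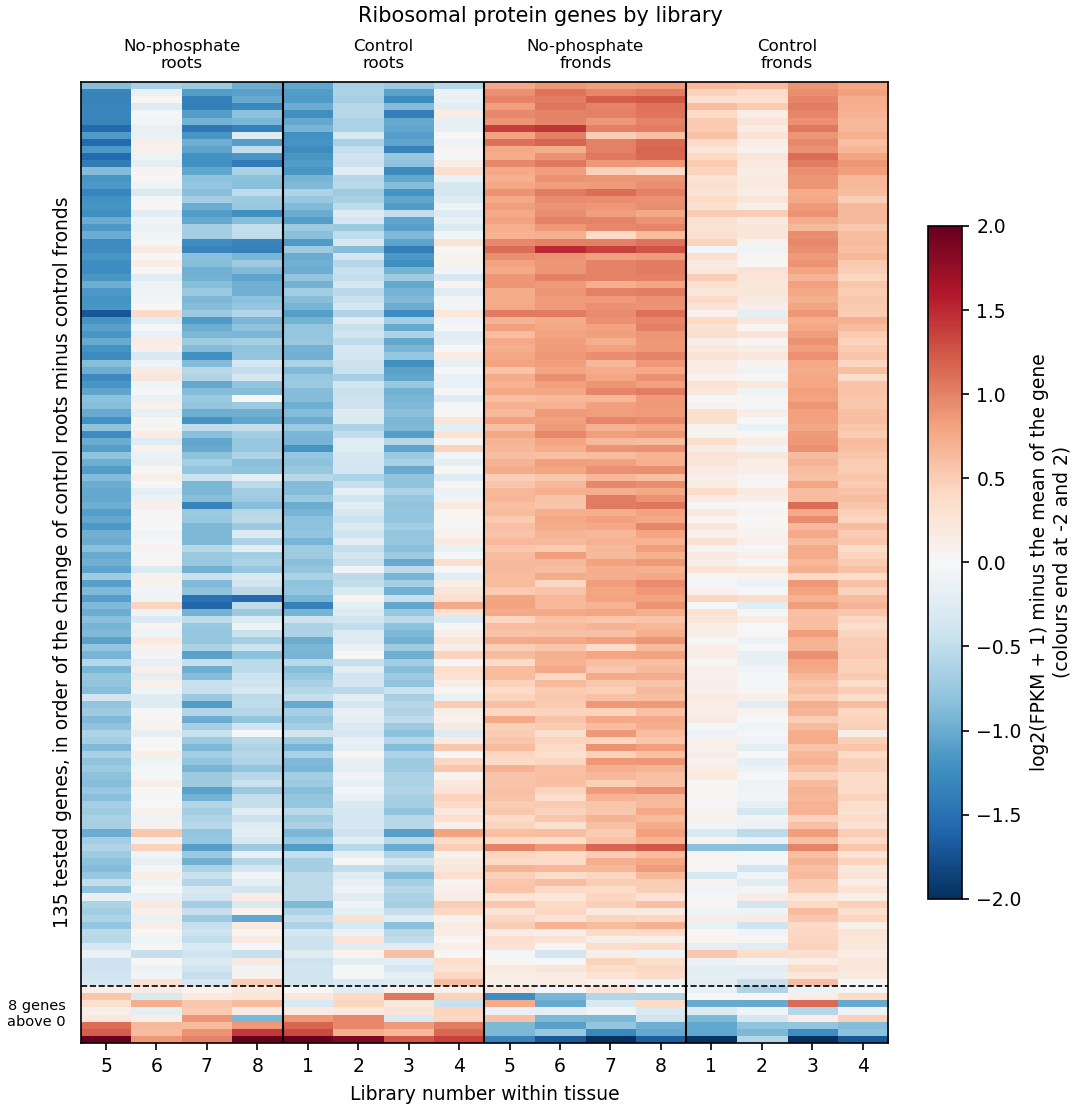
Level of each of the 135 tested ribosomal protein genes (rows, in order of the change of control roots minus control fronds) in each library (columns, with column numbers), as log2(FPKM + 1) minus the mean of the gene over the 16 libraries. Most rows are blue in roots and red in fronds, the 8 rows under the dashed line had a change above 0, and root libraries 6 and 4 and frond libraries 1 and 2 are paler than the others of their groups.

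Copies of 1 protein mostly differed between tissues by a like amount, but the ribosomal protein genes as a whole lay close together too. The quartiles of the change in control medium over the 135 tested genes were -1.003 and -0.553. Whether copies of 1 protein were closer to each other than to other ribosomal protein genes was not tested. For the 53 proteins with several copies, the largest and smallest changes in control medium were a median of 0.34 apart on the log2 scale, and less than 0.5 apart for 36 proteins. Every tested copy was lower in control roots for 28 of the proteins, and in no-phosphate roots for 44. In 5 proteins, L12, L23a, L37a, P2 and S26, the most abundant copy of control roots was another than that of control fronds, which was not tested. Copies had changes of opposite sign in 4 proteins and opposite calls in 2, L19 and S7.

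For L35 and L24, the estimates of both copies were below 0, but only the copy given first here was called. The L35 gene Sp05g00492 had 25.8, 44.1, 34.4 and 57.2 FPKM in control roots, against 78.2, 70.0, 129 and 102 FPKM in control fronds, a change of -1.23 ± 0.29 (adjusted p = 0.00147). The more abundant copy, Sp19g00353, had 249.8, 324, 289 and 438 FPKM in control roots and 289, 294, 385 and 374 FPKM in control fronds, a change of -0.06 ± 0.17 (adjusted p = 0.758). The groups did not overlap for the first copy and overlapped for the second. For L24, Sp01g01206 changed by -1.08 ± 0.27 (adjusted p = 0.00238), and Sp06g00882, whose model has a second domain of the LYR family, by -0.25 ± 0.16 (adjusted p = 0.181). The differences between copies were not tested.

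**Figure D4:**
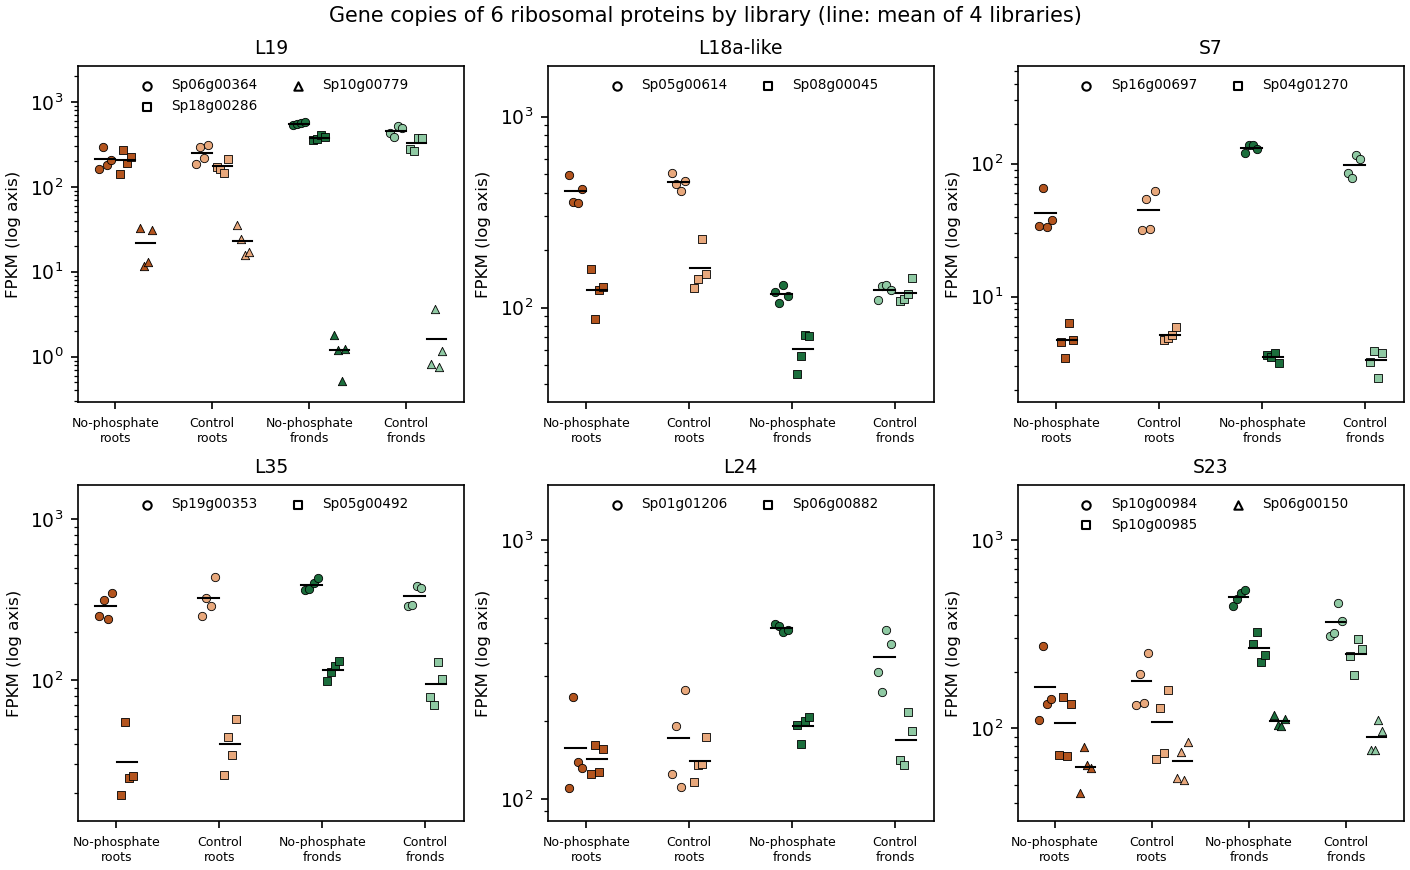
FPKM (log axis) of the gene copies of 6 ribosomal proteins in each library, with symbols for the copies and a line at the mean of 4 libraries. The L19 copy Sp10g00779 averaged 22.0 FPKM in no-phosphate roots and 23.2 FPKM in control roots, against 1.18 FPKM in no-phosphate fronds and 1.61 FPKM in control fronds, below both other copies everywhere.

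The next comparison asked which ribosomal protein genes differed in fronds 1 day after phosphate was withdrawn. None of the 135 genes was higher and 1 was lower, where 2.11% and 2.30% of all genes tested were called higher and lower. Most genes had a higher mean without phosphate: the change was above 0 for 130 of 135 genes, against 51.3% of all genes, and the median was 0.35, against 0.01. By limma 13 genes (9.63%) were above 0 and 2 (1.48%) below 0 at an unadjusted p under 0.05, against 10.2% and 10.6% of all genes. The share above 0 at that limit was thus near the background in this fit of all 16 libraries, but not in 2 other fits given below. Limma-voom on the recovered reads called 0 higher and 1 lower, where 1.95% and 2.08% of all genes were called. The libraries of the 2 media did not overlap for 25 genes higher and 2 lower, against 9.65% and 9.46% of all genes. The genes of a library share its deviation, so the 130 genes are not independent observations. In a fit of the fronds alone, 13 ribosomal protein genes (9.63%) were called higher and 1 (0.741%) lower, against 5.43% and 5.24% of all genes. At an unadjusted p under 0.05, that fit put 71 (52.6%) above 0 and 2 (1.48%) below 0, against 14.3% and 13.5% of all genes. Without no-phosphate root 6, limma put 34 (25.2%) above 0 and 2 (1.48%) below 0 at that limit, against 11.2% and 11.4%.

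The gene called lower was the L18a-like homolog Sp08g00045 (chromosome 8, 749221 to 751745). It had 45.0, 56.0, 71.5 and 70.7 FPKM in no-phosphate fronds, against 108, 111, 117 and 142 FPKM in control fronds. The media did not overlap, and the change was -0.98 ± 0.20 (adjusted p = 0.0161). Leaving out no-phosphate frond 5, no-phosphate frond 6 or control frond 4 gave adjusted p values of 0.0632, 0.0533 and 0.0644. In roots the same gene had 124 ± 29.3 FPKM without phosphate and 162 ± 45.6 FPKM in control medium (-0.37 ± 0.20, adjusted p = 0.377).

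The other genes with the smallest p in fronds did not pass the adjustment. S17 (Sp16g00052, chromosome 16, 262222 to 262653) had 198, 215, 213 and 221 FPKM in no-phosphate fronds and 130.2, 135, 168 and 166 FPKM in control fronds, a change of 0.50 ± 0.16 (adjusted p = 0.0945). Every no-phosphate library was above every control library. L12 (Sp14g00026) had 67.9, 87.9, 80.5 and 75.1 FPKM in no-phosphate fronds and 29.6, 29.2, 59.5 and 47.2 FPKM in control fronds, a change of 0.95 ± 0.34 (adjusted p = 0.123). S15a (Sp01g01319) and the S4 homolog with a kinase domain (Sp15g00018) had changes of 0.64 ± 0.23 (adjusted p = 0.134) and 0.50 ± 0.17 (adjusted p = 0.11), again without overlap. The short L21 model Sp14g00265 had a lower mean, with 23.9 ± 3.49 FPKM in no-phosphate fronds and 32.6 ± 3.78 FPKM in control fronds (-0.44 ± 0.16, adjusted p = 0.13).

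The largest change above 0 in fronds was that of S27a (Sp09g00983), with 253, 234, 287 and 303 FPKM in no-phosphate fronds and 70.8, 70.9, 254 and 188 FPKM in control fronds. The groups overlapped through control frond 3, and the change was 1.10 ± 0.43 (adjusted p = 0.156). S6 (Sp03g00957), the small subunit protein phosphorylated by the S6 kinases and named here for that role, averaged 711 ± 37.0 FPKM in no-phosphate fronds and 548 ± 86.5 FPKM in control fronds. Its change of 0.39 was not called, nor was that of the second S6 gene, Sp09g00675 (0.28).

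In roots, none of the 135 genes was higher or lower without phosphate, where 0.355% and 0.0663% of all genes were called higher and lower. By limma 0 genes were above 0 and 5 (3.7%) below 0 at an unadjusted p under 0.05, against 8.83% and 7.43% of all genes. Limma-voom called 0 ribosomal protein genes, where 0.590% of all genes were higher and 0.157% lower. The median change was -0.12, against -0.01 for all genes, and the change was above 0 for 32 genes, against 48.1% of all genes. No gene had libraries without overlap, against 3.45% of all genes higher and 1.89% lower. The sign of the median rested on single libraries: it was 0.01 without no-phosphate root 5 and 0.06 without control root 4. Without no-phosphate root 6 it was -0.30, and 3 genes (2.22%) were called lower and 0 higher. The calls over all genes grew too in that fit, to 178 lower (1.07%) and 145 higher (0.874%), against 11 and 59 with all libraries. At an unadjusted p under 0.05, that limma fit put 26 ribosomal protein genes (19.3%) below 0 and 0 above 0. The shares of all genes were 10.0% and 9.60%.

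The 3 genes called lower without no-phosphate root 6 were S16, S11 and L3. S16 (Sp08g00161, chromosome 8, 1878542 to 1878982) had 55.4, 112, 42.1 and 39.7 FPKM in no-phosphate roots and 63.1, 125, 86.6 and 150.3 FPKM in control roots. The groups overlapped, and the change was -0.81 ± 0.28 (adjusted p = 0.167; 0.0277 without library 6). The S11 homolog Sp11g00899 averaged 23.3 ± 6.58 FPKM in no-phosphate roots and 34.2 ± 8.33 FPKM in control roots, a change of -0.54 ± 0.18 (adjusted p = 0.155; 0.0458 without library 6). The L3 gene Sp07g00072 averaged 39.1 ± 15.6 FPKM in no-phosphate roots and 52.3 ± 11.6 FPKM in control roots (-0.45 ± 0.21, adjusted p = 0.294; 0.0409 without library 6).

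Whether the phosphate contrast differed between tissues was tested as the root contrast minus the frond contrast. None of the 135 genes was called either way, nor was any of all 16598 genes (0.00% higher and 0.00% lower). Over all genes, limma-voom called 2 higher and 0 lower, and 949 genes were above 0 and 894 below 0 by limma at an unadjusted p under 0.05. By limma, 15 ribosomal protein genes (11.1%) were below 0 and 0 above 0 at an unadjusted p under 0.05. The shares of all genes were 5.39% and 5.72%. Limma-voom called 0 of the ribosomal protein genes. At the unadjusted limit it put 20 (14.8%) below 0 and 1 (0.741%) above 0, against 5.72% and 4.65% of all genes. The median difference of the ribosomal protein genes was -0.47, against 0.00 for all genes. It was below 0 for 130 of the 135 genes, against 8299 of all 16598, and the 130 are not independent observations. The smallest p was that of the S4 homolog Sp15g00018 (-0.78 ± 0.24, adjusted p = 0.333). Without no-phosphate root 6, this gene and L10 (Sp02g01259) were called, with differences of -0.99 (adjusted p = 0.0304) and -1.37 (adjusted p = 0.0488). The same fit called 77 of all genes lower (0.464%) and 39 higher (0.235%). At an unadjusted p under 0.05, it put 66 ribosomal protein genes (48.9%) below 0 and 1 (0.741%) above 0, against 9.76% and 8.30% of all genes.

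Within groups, the ribosomal protein genes were high or low together in the same libraries. No-phosphate root 6 had the highest value of its group for 117 of 135 genes, control root 4 for 125, control frond 3 for 126 and no-phosphate frond 8 for 68. Of the other genes with at least 50 FPKM, 20.4%, 22.0%, 30.4% and 18.6% had their highest value in these libraries. Control frond 2 had the lowest value for 114 genes and no-phosphate root 5 for 92, against 12.8% and 25.1% of the other genes. In the 2 groups of roots the median SD on the log2 scale was 0.43 (no phosphate) and 0.42 (control) for the ribosomal protein genes, against 0.24 and 0.21 for the other genes. In fronds it was 0.10 without phosphate and 0.32 in control medium, against 0.15 and 0.14, so no-phosphate fronds were the group in which the ribosomal protein genes were closest together.

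**Figure D5:**
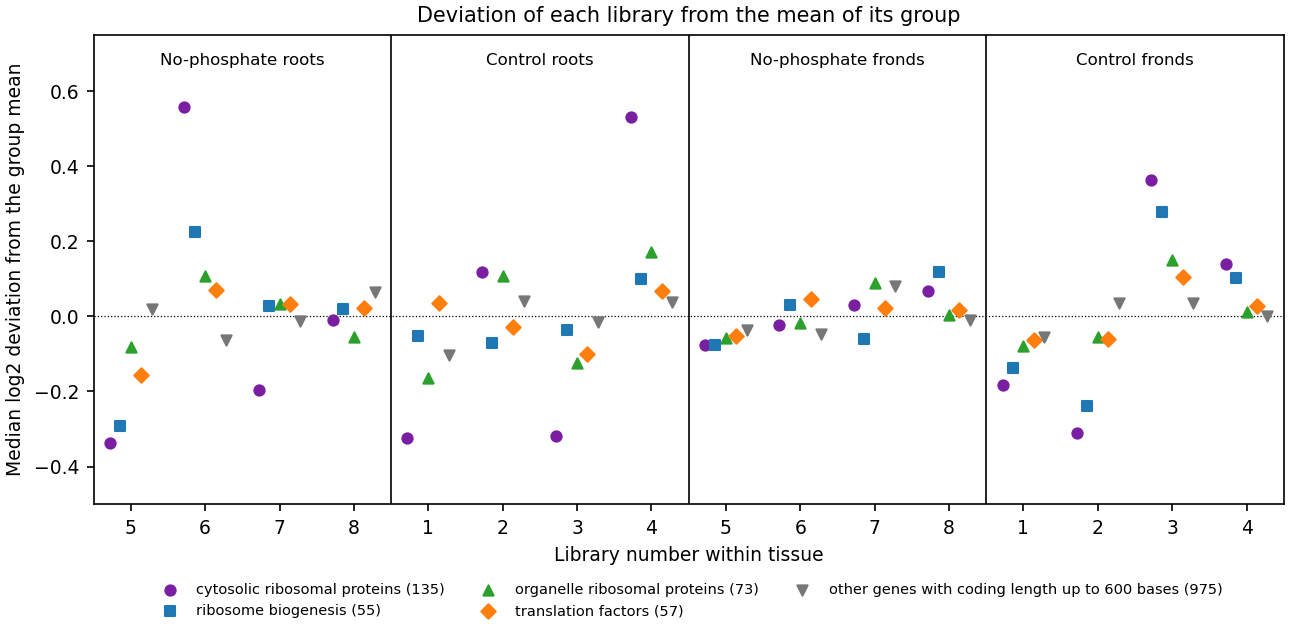
Median deviation of 5 sets of genes in each library from the mean of its group, on the log2(FPKM + 1) scale, with the number of genes tested in each set in the legend. The ribosomal protein genes deviate by 0.56 in no-phosphate root 6, by 0.53 in control root 4 and by 0.36 in control frond 3, while other short genes stay within 0.10 of their group means in all but 1 library.

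The median deviation of the ribosomal protein genes was 0.56 in no-phosphate root 6, 0.53 in control root 4 and 0.36 in control frond 3. For ribosome biogenesis homologs, which make and process ribosomal RNA, it was 0.23, 0.10 and 0.28 in these libraries, and for organelle ribosomal proteins 0.11, 0.17 and 0.15. Other genes with coding lengths of up to 600 bases deviated by -0.06, 0.04 and 0.03, and those of at least 1500 bases by -0.07, -0.08 and -0.06. The chlorophyll and Rubisco homologs deviated by -0.09, -0.00 and 0.03. What set these libraries apart was not tested.

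Among genes that work with the cytosolic ribosome, 55 biogenesis homologs tested had a median change of 0.32 in fronds without phosphate. None was called, where 2.11% and 2.30% of all genes were called higher and lower. By limma 18 were above 0 and 1 below 0 at an unadjusted p under 0.05, against 10.2% and 10.6% of all genes. The smallest p was that of a nucleolar GTP-binding protein 1 homolog, which acts in 60S assembly (Sp13g00207, 50.6 ± 2.61 FPKM in no-phosphate fronds and 37.3 ± 1.76 FPKM in control fronds, adjusted p = 0.0722). Of 57 translation factor homologs, 4 (7.02%) were higher in no-phosphate fronds and none lower, against 2.11% and 2.30% of all genes. They included eIF4E (Sp16g00359), which binds the cap of the message, with 169 ± 31.7 FPKM in no-phosphate fronds and 104 ± 12.1 FPKM in control fronds (0.68 ± 0.14, adjusted p = 0.0154). eIF3 subunit C (Sp09g00944) had 103 ± 3.91 FPKM in no-phosphate fronds and 69.1 ± 4.51 FPKM in control fronds (0.57 ± 0.12, adjusted p = 0.0198). An S6 kinase homolog (Sp06g01075) was higher in no-phosphate fronds (0.41 ± 0.10, adjusted p = 0.0316). Another homolog of the same name, Sp02g00550, had a change below 0 and was not called (-0.20 ± 0.12, adjusted p = 0.339). The homolog of TOR, the kinase upstream of S6 kinase, was not called (Sp04g00582, -0.39 ± 0.15, adjusted p = 0.142).

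In roots without phosphate, TAP46, a phosphatase regulator known as a TOR target in Arabidopsis, was higher (Sp08g00541, 39.9 ± 7.0 FPKM in no-phosphate roots and 22.3 ± 2.11 FPKM in control roots, 0.80 ± 0.12, adjusted p = 0.0194). So was eIF1A (Sp19g00087, 0.55 ± 0.11, adjusted p = 0.0386), 1 of 57 translation factors (1.75%), and no biogenesis, organelle ribosomal or tRNA ligase homolog was called. Of all genes tested, 0.355% were called higher and 0.0663% lower. Between tissues, 31.0% of all genes tested were called lower and 28.8% higher in control roots than in control fronds. Of 55 biogenesis homologs, 34 were lower and 1 higher in control roots, with a median of -0.52. Of 57 translation factors, 28 were lower and 8 higher (median -0.24), and of 73 organelle ribosomal proteins 42 were lower and 0 higher (median -0.83). The cytosolic ribosomal protein genes had a median of -0.80 in that comparison.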

How the data were processed

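Polyadenylated RNA was sequenced as read pairs, per the labels' protocols, and the submitters' processing notes name HISAT2 2.0.5 and featureCounts 1.5.0-p3. The sources used here do not give the genome build, annotation or strand setting. The values deposited by the authors are FPKM, per the file headers. They are whole reads (100% of values within 0.001 reads) divided by a length that is a multiple of 3 for 98.4% of genes, and carry a scaling between libraries of 0.886 to 1.14 that is not described. This scaling, the depth implied by the FPKM over the recovered reads, was 1.03 to 1.14 in roots and 0.886 to 0.970 in fronds. It thus separated the tissues, and a higher value lowers the FPKM. At these depths 3 reads on 1 kb are worth 0.213 to 0.507 FPKM.

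Group means of log2(FPKM + 1) were fitted over 16 libraries with limma 3.58.1 (R 4.3.3, trended robust prior, 12 residual degrees of freedom, two-sided) for the 16598 genes that averaged 0.5 FPKM or more. Other scalings, pseudocounts, priors and filters, leaving out each library and, added after seeing the data, limma-voom on the recovered reads were alternatives.

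Named genes were the called genes (or the 6 smallest p) of the phosphate contrasts, the largest tissue changes, the extremes of level, the copies that differed most, and stalk and ubiquitin fusion genes. S6, S9, L18a and S15a were chosen afterwards. The members, lists and rules were chosen with earlier results of these data known. 1 emptied line was not used.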

Additional observations from a re-analysis of the deposited data

Results flagged for a closer look

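For 44 named genes and 2 sums, each group of 4 libraries was checked for a library whose gap to the nearest other exceeds 0.83 of the range of the group (Dixon's 95% limit). This held in 13 of 184 groups, where chance gives about 1 in 20. In 10 of the 13, no-phosphate root 6 was far above the other no-phosphate roots. It had 35.0 FPKM for L12 (Sp14g00026), 39.7 FPKM for L10 (Sp02g01259), 75.2 FPKM for L10a (Sp01g00274), 62.5 FPKM for L3 (Sp07g00072) and 65.5 FPKM for S7 (Sp16g00697). It had 104 FPKM for L5 (Sp04g00488), 113 FPKM for L37a (Sp14g00680), 163 FPKM for P2 (Sp12g00048), 249.9 FPKM for L13 (Sp20g00566) and 349 FPKM for P0 (Sp06g01333). The other no-phosphate roots had at most 12.4 FPKM for L12 and 172 FPKM for P0. These genes shared the library, so the 10 are not separate events.

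The other 3 were single. The S4 homolog Sp15g00018 was lowest in no-phosphate frond 5, with 44.5 FPKM against 48.7 FPKM or more. L37a (Sp14g00680) was lowest in no-phosphate frond 6, with 162 FPKM against 184 FPKM or more. The root-high L19 copy Sp10g00779 was highest in control frond 2, with 3.67 FPKM against at most 1.18 FPKM.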

How the results depend on the processing

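The medians and counts kept their direction under other pseudocounts, no filter, TMM scaling, a constant prior and limma-voom on recovered reads, which called 92 lower and 4 higher in control roots and 121 lower and 4 higher in no-phosphate roots. The count models planned (edgeR and DESeq2) are not reported, and limma-voom stands in their place. Fitting only the groups compared called 13 ribosomal protein genes higher in no-phosphate fronds in place of 0. Rescaling to the same sum left 62 lower in control roots in place of 99, and moved the mean sum of no-phosphate fronds to 44412 FPKM.

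Leaving out 1 library at a time gave medians of 0.24 to 0.47 in fronds, -0.30 to 0.06 in roots (0.0629 without control root 4 and 0.0086 without no-phosphate root 5) and -0.65 to -0.27 for their difference. Calls in fronds were 0 to 2 higher (2 without no-phosphate root 6) and 0 to 1 lower. In roots they were 0 higher and 0 to 3 lower, and for the difference 0 higher and 0 to 2 lower. Between tissues, control roots had 4 to 5 higher and 79 to 118 lower (medians -1.0 to -0.69), and no-phosphate roots 4 to 5 higher and 117 to 125 lower (medians -1.49 to -1.18). Mean sums were 18424 to 22951 FPKM in no-phosphate roots, 20236 to 25402 FPKM in control roots, 48617 to 50339 FPKM in no-phosphate fronds and 36063 to 42263 FPKM in control fronds. For the 44 named genes, no called change reversed its sign. In the comparison of control roots with control fronds, leaving out a library ended a call 24 times and added one 22 times, and the other settings ended 15 and added 4.

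Which frond and root libraries came from the same flask is not given, so the main fit used no pairing. Deviations of same-numbered libraries correlated between -0.116 and 0.147. For other pairs within a medium the correlations were between -0.28 and 0.32. Such values cannot decide whether the numbers pair flasks. With the number as a block, 4 genes were higher and 100 lower in control roots, 4 higher and 123 lower in no-phosphate roots, and 0 differed between the phosphate contrasts. At 3 reads per library, genes of 1 kb below 0.213 to 0.507 FPKM could not be compared.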
